A study of Mus musculus with 4 samples.

Results

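Nuclear receptors and the coregulators that work with them were examined in testes of hypogonadal (hpg) mice. A probe set was taken as a member when the platform annotation gave it a single gene symbol of this family: the NR-numbered receptors, the estrogen, estrogen-related, retinoid, retinoid-related orphan (ROR), thyroid hormone, vitamin D and progesterone receptors, the PPARs with their coactivators, and the Ncoa and Nrip1 coregulators. This gave 67 of 12422 probe sets, for 45 of 8251 named genes, of which 36 encode receptors and 9 encode coregulators or accessory proteins. The androgen receptor was not analysed here.

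The hpg mouse lacks gonadotropin-releasing hormone and therefore makes little testosterone. All 4 samples are total RNA of testis from such mice that had received testosterone proprionate (the labels' spelling of an injectable testosterone ester) and were then withdrawn from it. The group titled T+T has 3 arrays. T+T replicate 1 is described as treated with the ester again for 4 hours after the withdrawal, with no duration for the first treatment. T+T replicates 2 and 3 are described as pretreated for 2 weeks and withdrawn, with no renewed treatment mentioned, so only their titles place them in T+T. The group titled T+O has 1 array, described as pretreated for 2 weeks and withdrawn. The labels give neither age nor strain, and do not say whether an array holds 1 animal or a pool.

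Nuclear receptors are transcription factors that bind DNA through zinc fingers and are switched by small lipid-soluble ligands such as steroids, retinoids, thyroid hormone and fatty acids. Ligand changes the shape of the receptor so that corepressor complexes leave and coactivators of the Ncoa family bind. In the testis, Nr5a1 (SF-1) drives steroid-making enzymes in Leydig cells and Amh in Sertoli cells, Nr0b1 (DAX-1) restrains it, and Nr6a1 (germ cell nuclear factor) is a repressor known from germ cells. Many receptors bind DNA at the half-site AGGTCA, alone or repeated.

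The windows just before the annotated starts of Nr6a1, Esrra and Nr1i3 are shown because these are the members with an unadjusted p under 0.05 in the comparison given further on, all with T+T above T+O. Each is the 250 bases before a RefSeq start (GRCm38.p6), written 5′ to 3′ along the gene's strand, and capitals mark AGGTCA or its reverse complement TGACCT.

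Nr6a1, chr2:38784516-38784765, minus strand: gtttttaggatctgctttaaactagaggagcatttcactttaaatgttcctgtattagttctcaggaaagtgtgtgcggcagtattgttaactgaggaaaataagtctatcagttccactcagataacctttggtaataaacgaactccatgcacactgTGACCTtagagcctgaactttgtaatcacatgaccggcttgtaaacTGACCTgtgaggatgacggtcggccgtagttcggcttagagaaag

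Nr6a1, chr2:38926462-38926711, minus strand: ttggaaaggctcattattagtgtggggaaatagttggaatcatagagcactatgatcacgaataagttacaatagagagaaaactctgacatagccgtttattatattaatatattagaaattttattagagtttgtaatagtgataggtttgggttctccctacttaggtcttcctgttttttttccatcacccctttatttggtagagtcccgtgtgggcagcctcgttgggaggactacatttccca

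Esrra, chr19:6921809-6922058, minus strand: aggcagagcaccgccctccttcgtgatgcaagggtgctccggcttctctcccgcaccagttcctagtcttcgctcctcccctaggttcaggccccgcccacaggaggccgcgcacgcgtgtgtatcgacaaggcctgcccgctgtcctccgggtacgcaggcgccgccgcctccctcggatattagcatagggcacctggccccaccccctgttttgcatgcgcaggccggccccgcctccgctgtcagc

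Nr1i3, chr1:171213720-171213969, plus strand: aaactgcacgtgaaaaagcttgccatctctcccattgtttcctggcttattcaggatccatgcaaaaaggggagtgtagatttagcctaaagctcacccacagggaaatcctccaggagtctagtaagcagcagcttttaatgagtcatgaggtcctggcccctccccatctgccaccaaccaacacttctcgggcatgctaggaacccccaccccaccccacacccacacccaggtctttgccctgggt

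The first Nr6a1 window, before a start inside the gene, held 2 half-sites, which begin 91 and 45 bases before the start. The other 3 windows held none in these letters. A window was available for 40 of the 45 member genes, 59 windows in all. Of these, 12 windows (20.3%) held the half-site on either strand, against 14.0% of the windows of all genes. A match describes the letters and not a bound site.

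Signals are array intensities scaled to a common trimmed mean. Fold changes are T+T minus T+O on the log2(scaled signal + 10) scale, which understates the change of dim probe sets. Levels were not compared between probe sets. Only probe sets with a mean over all arrays past 22.7 (the 40th percentile of such means) were tested. Of the 67 member probe sets 34 passed that filter, for 26 of the 45 genes.

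No receptor or coregulator passed the test between T+T and T+O. None of the 34 tested member probe sets passed an adjusted p of 0.05 in either direction (limma, Benjamini-Hochberg over 7453 probe sets, lowest adjusted p = 0.40 for Nr6a1), where 0.0268% of all tested probe sets passed as higher and 0% as lower. At an unadjusted p under 0.05 in limma, 3 members (8.82%) lay above T+O, against 3.57% of all tested probe sets. No member lay below T+O at that level, against 4.23% of all. The 3 were Nr6a1 92696_at, Esrra 103964_at and Nr1i3 102171_r_at. Nr6a1 passed the level filter through its T+T signals, as given further on. Over both directions together, the share of members was close to that of all tested probe sets. With 3 arrays against 1, a two-sided exact rank test could not go below p = 0.50, and the T+O array brings no spread of its own.

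The members were split about evenly around T+O. The mean difference was above 0 for 18 of the 34 and below 0 for 16, with a median of 0.027 (log2), against 0.026 for all tested probe sets. All 3 T+T arrays lay above the T+O array for 13 members (38.2%), against 29.5% of all tested probe sets. All 3 lay below it for 5 members (14.7%), against 23.7% of all. The median SD over the T+T arrays was 0.19 (log2) for the members and 0.20 for all tested probe sets, so T+T arrays varied for receptors about as they did elsewhere.

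**Figure D1:**
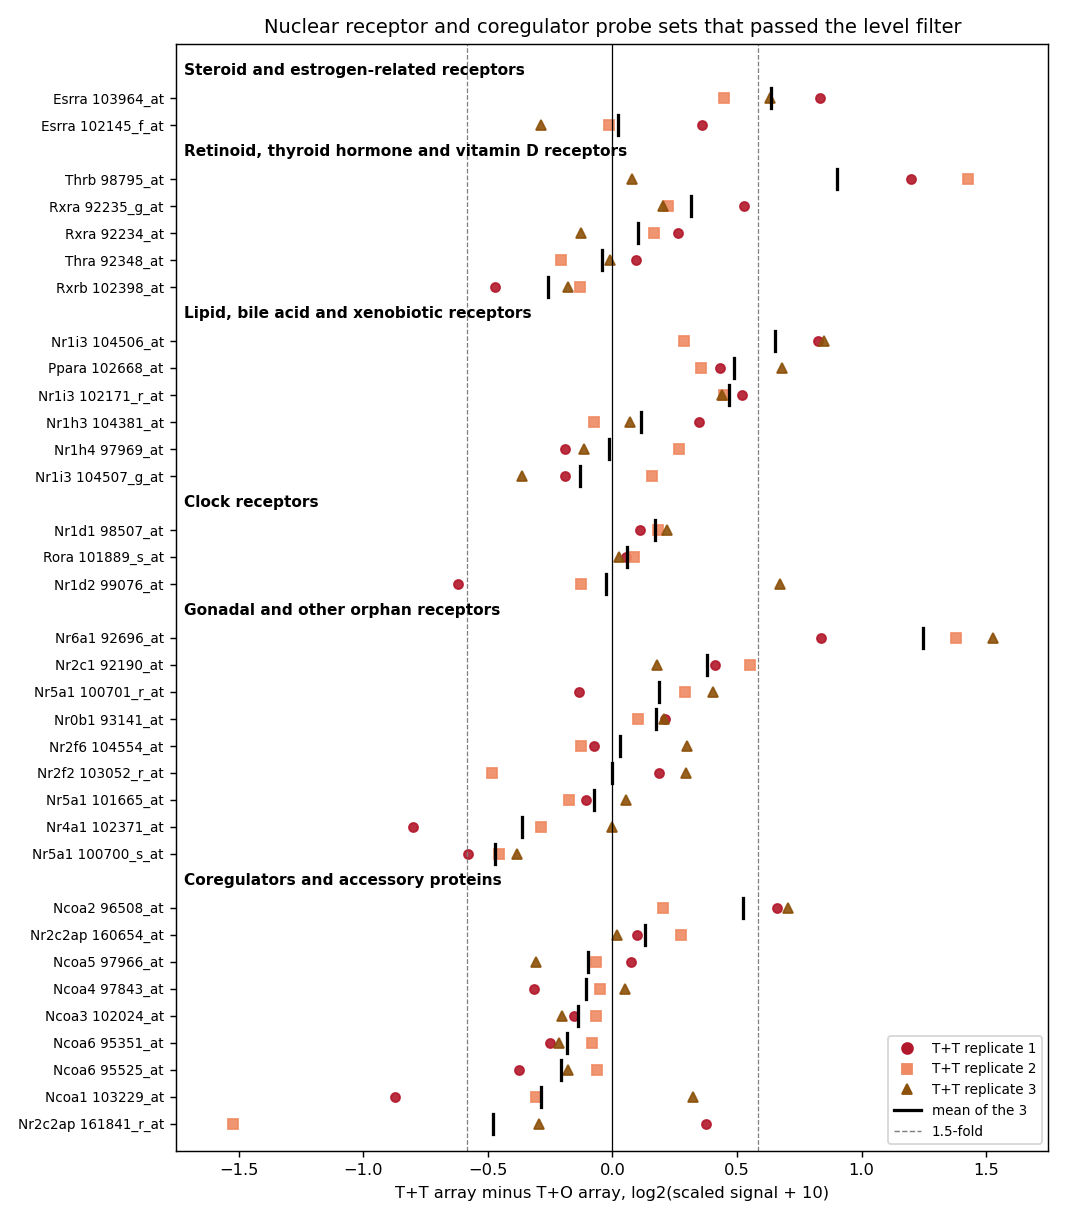
Difference of each T+T array from the T+O array for the 34 tested member probe sets, by class, on the log2(scaled signal + 10) scale (x axis). Points are arrays, black bars the mean of the 3, dashed lines 1.5-fold. Nr6a1 is the single member with all 3 points past a dashed line, and the points of Nr1d2 and Nr2c2ap 161841_r_at lie on both sides of 0.

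On every T+T array 1 member lay 1.5-fold or more from T+O: Nr6a1, which is known for a role in germ cells and in the early embryo. Its probe set 92696_at had signals of 35.3, 55.9 and 63.2 on T+T replicates 1, 2 and 3, against 15.4 on the T+O array. The groups did not overlap, although T+T replicate 1 lay closer to T+O than the other 2 did. The log2 difference was 1.25 ± 0.36 (SE), with a 95% interval of 0.42 to 2.08 (limma, adjusted p = 0.40). It was 0.77 with an offset at the 50th percentile, which ended the 1.5-fold call, and -0.13 when T+T replicates 2 and 3 were counted as withdrawn, as their descriptions allow. Of all tested probe sets, 1.82% were at least 1.5-fold higher on all 3 T+T arrays, and 1 of 34 members is 2.94%. Below T+O by that measure were 0 members, against 2.21% of all.

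The T+O signal of Nr6a1 was under the filter level of 22.7, so the probe set was tested because of its T+T signals. The same holds for Thrb, and these were the 2 tested members with T+O under that level. The control probe sets for Gapdh gave a 3′ to 5′ ratio of 0.886, 0.837 and 0.809 on the T+T arrays and 1.20 on the T+O array. For pyruvate carboxylase the ratio was 1.93, 2.00 and 1.76 on the T+T arrays and 3.76 on the T+O array. For beta-actin it was 1.66, 1.40 and 1.17 on the T+T arrays and 1.53 on the T+O array, so T+O stood apart for 2 of the 3 controls.

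Germ cell markers differed among themselves. The summed signal of 6 spermatid marker genes (8 probe sets, 6 of them tested and 0 past the threshold) ranged from 22920 to 29190 on the T+T arrays and was 22160 on the T+O array, with Tnp2 and Prm1 the largest terms. Acrv1 of that list ran the other way, with 160, 233 and 228 on the T+T arrays, against 265.5 on the T+O array. For 6 marker genes of germ cells before meiosis the sum ranged from 869 to 1238 on the T+T arrays. On the T+O array it was 1302. The low end was T+T replicate 1, where Ddx4 had 283, against 597 and 588 on T+T replicates 2 and 3 and 635 on T+O. Stra8 also lay below T+O on every T+T array. Uchl1 and Kit ran the other way. Uchl1 had 359, 357 and 340 on the T+T arrays, against 288.5 on the T+O array, and Kit had 41.3, 37.8 and 40.5, against 34.6. Dazl probe set 94750_at lay 1.5-fold or more under T+O on each T+T array. It had 63.5, 79.2 and 103 on the T+T arrays, against 166 on the T+O array. The other Dazl probe set (160357_at) had 54.9, 74.96 and 71.0 on the T+T arrays, against 66.0 on the T+O array. Among meiotic markers Sycp1, a protein of the synaptonemal complex, had 13.5, 38.5 and 36.2 on the T+T arrays, against 389.9 on the T+O array. Its log2 difference of -3.42 was the lowest of all tested probe sets (limma, adjusted p = 0.11). Other meiotic markers ran the other way, with every T+T array above T+O. Ccna1 had 423, 425 and 316 on the T+T arrays, against 256 on the T+O array. Hspa2 had 1752, 1956 and 1838, against 1533, and Pgk2 had 593, 708 and 594, against 576. The part of RNA quality or cell makeup in the Nr6a1 difference was not tested. In whole testis, more cells of a type and more RNA per cell cannot be told apart.

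Nr6a1 lies beside Nr5a1 on mouse chromosome 2, with no other protein-coding gene starting between them in RefSeq. Nr5a1, the SF-1 receptor, has 5 probe sets, of which 3 were tested, and they did not run the same way. Probe set 100700_s_at had 99.7, 110 and 116 on the T+T arrays, against 154 on the T+O array, so T+O was the highest array. Its log2 difference was -0.47 ± 0.21 (SE, limma, adjusted p = 0.66). Probe set 101665_at had 497, 473 and 557 on the T+T arrays, against 536 on the T+O array, with T+O inside the T+T range. Its log2 difference was -0.075 with a 95% interval of -0.49 to 0.34. Probe set 100701_r_at had 57.3, 80.4 and 87.7 on the T+T arrays, against 63.9 on the T+O array, again inside the range. The suffixes _s and _r mark probe sets that may share probes with other transcripts or were chosen under relaxed rules, so no direction can be given for Nr5a1.

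Nr0b1, the DAX-1 repressor of Nr5a1, stayed within a narrow band. Its probe set 93141_at had 111, 102 and 111 on the T+T arrays, against 94.6 on the T+O array. All T+T values were higher, by a mean log2 difference of 0.17 with a 95% interval of -0.31 to 0.66. Of the 14 listed target genes of NR5A1 (among them Star, Cyp11a1, Cyp17a1, Inha and Scarb1), 8 had a tested probe set. None of their 9 probe sets passed, and their median log2 difference was 0.03. The highest was a probe set of Star, which carries cholesterol into mitochondria, at 0.60. Its T+O signal (14.5) was under the filter level, and among the T+T arrays only replicate 3 (45.9) lay above that level. The lowest was a probe set of Hsd3b1, an enzyme of steroid synthesis, at -0.28. Neither had an adjusted p under 0.83 in limma.

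Among the other orphan receptors Nr2c1 (testicular receptor 2), known mostly as a repressor, had 317, 351 and 269 on the T+T arrays, against 236 on the T+O array. T+O was the lowest array, and the log2 difference was 0.38 ± 0.21 (SE, limma, adjusted p = 0.73). Nr4a1 (Nur77), an immediate-early receptor that luteinizing hormone and cyclic AMP induce in Leydig cells, had 36.2, 55.9 and 70.4 on the T+T arrays, against 70.4 on the T+O array. T+T replicate 3 matched T+O, and T+T replicate 1, the array with 4 hours of renewed treatment in its description, was the lowest. The mean log2 difference was -0.36 ± 0.34 (SE). Nr2f2 (COUP-TFII), a receptor of the interstitial cells, had 56.6, 31.8 and 61.7 on the T+T arrays, against 48.5 on the T+O array, so the groups overlapped and the mean log2 difference was 0.00. Nr2f6 had 85.2, 82.0 and 113 on the T+T arrays, against 90.4 on the T+O array.

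**Figure D2:**
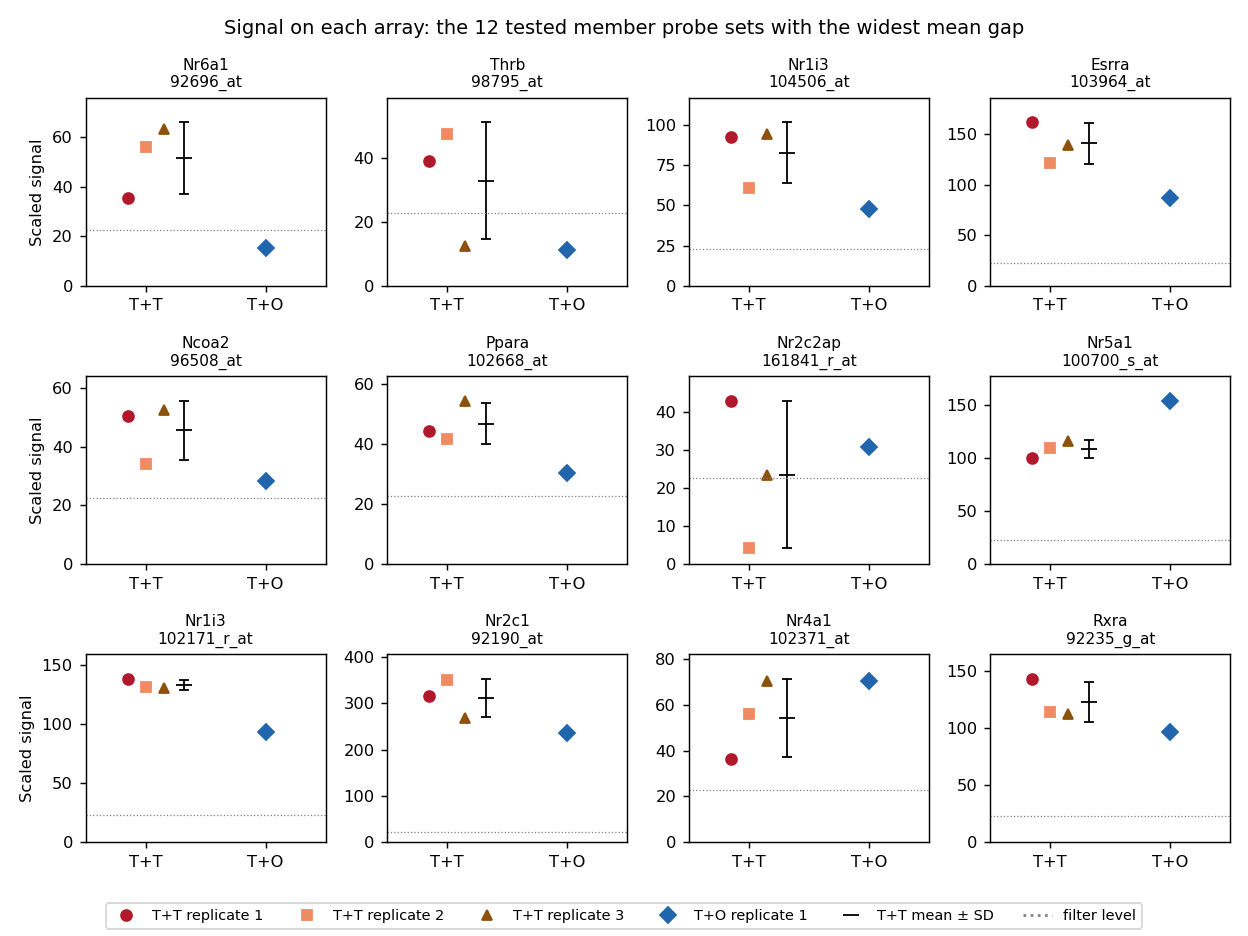
Scaled signal (y axis, from 0) on each T+T array and on the T+O array for the 12 tested member probe sets with the widest mean gap; the black bar is the T+T mean with its SD (n = 3), the dotted line the filter level of 22.7. Among others, Nr6a1, both Nr1i3 panels and Esrra 103964_at have every T+T array above T+O, Nr5a1 100700_s_at has every one below, and on the Thrb panel T+T replicate 3 sits beside T+O.

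No ligand-bound steroid receptor of the rule could be tested: the probe sets of Esr1, Esr2, Pgr and Nr3c1 (the glucocorticoid receptor) all fell under the filter. Their relative Esrra, the estrogen-related receptor alpha, binds no estrogen and regulates mitochondrial energy genes. Its probe set 103964_at had 162, 122 and 139 on the T+T arrays, against 86.4 on the T+O array. All 3 T+T arrays were higher, with a log2 difference of 0.64, a standard error of 0.23 and a 95% interval of 0.11 to 1.17 (limma, adjusted p = 0.53). The second Esrra probe set, 102145_f_at, had 61.7, 45.4 and 35.8 on the T+T arrays, against 45.8 on the T+O array. It differed by 0.02 on the log2 scale, and its suffix marks a probe set shared within a gene family.

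Of the 6 tested probe sets for lipid and xenobiotic receptors, 3 had all T+T arrays above T+O, where 29.5% of all tested probe sets did. They were a Ppara probe set and the Nr1i3 probe sets 104506_at and 102171_r_at, so a single gene gives most of the count. Nr1i3, the constitutive androstane receptor, senses drugs and bile pigments in liver and is held inactive by androstane steroids. Its probe set 104506_at had 92.9, 60.8 and 94.4 on the T+T arrays, against 48.02 on the T+O array, a log2 difference of 0.65 ± 0.29 (SE). Probe set 102171_r_at of the same gene, whose suffix marks relaxed rules, had 138, 131 and 130 on the T+T arrays, against 93.3 on T+O. The T+T arrays were close together and all higher, and the log2 difference was 0.47 ± 0.20 (SE, limma, adjusted p = 0.64). Probe set 104507_g_at, whose suffix marks probes in common with another probe set, had 62.1, 82.0 and 54.0 on the T+T arrays, against 72.3 on the T+O array. It overlapped T+O, so the 3 probe sets of Nr1i3 disagree.

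Ppara, the fatty acid sensor that turns on fat burning, had 44.3, 41.5 and 54.5 on the T+T arrays, against 30.3 on the T+O array. T+O was the lowest array, and the log2 difference was 0.49 ± 0.29 (SE, limma, adjusted p = 0.75). The liver X receptor Nr1h3, a sensor of oxidised cholesterol, had 87.0, 62.2 and 69.9 on the T+T arrays, against 66.1 on the T+O array, which lies inside the T+T range. The bile acid receptor Nr1h4 had 19.6, 30.5 and 21.1 on the T+T arrays, against 23.7 on the T+O array. Listed PPAR targets and LXR targets had medians of -0.10 and -0.04 (log2) over 10 tested probe sets each, with none past the threshold. Of the PPAR list, 2 probe sets of Angptl4, an inhibitor of lipoprotein lipase, were the lowest at -0.74 and the highest at 0.47. A probe set of the cholesterol exporter Abca1 was the lowest of the LXR list at -0.94 and the fatty acid synthase Fasn the highest at 0.34. The second Abca1 probe set, 97198_at, fell under the filter. It had 12.2, 24.55 and 19.6 on the T+T arrays, against 13.8 on the T+O array, which lies inside the T+T range.

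The retinoid X receptors are the partners with which many of the above bind DNA. Rxra probe set 92235_g_at had 143, 114 and 112 on the T+T arrays, against 96.3 on the T+O array, with T+O lowest and a log2 difference of 0.32. Rxra probe set 92234_at had 221, 206 and 166 on the T+T arrays, against 182 on the T+O array, where the groups overlapped. Rxrb, the RXR known to be needed in Sertoli cells, had 298, 379 and 367 on the T+T arrays, against 417 on the T+O array. All 3 T+T arrays were lower, by a mean log2 difference of -0.26 with a 95% interval of -0.73 to 0.21. Of the listed retinoic acid receptor targets 7 had a tested probe set and none passed. Among them, Tgm2 had a T+O signal (13.6) under the filter level, so it was tested because of its T+T signals. The highest was the crosslinking enzyme Tgm2 at 0.81, and the lowest Stra8, which starts meiosis, at -0.56 (limma, adjusted p = 0.73).

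Among thyroid hormone receptors, Thra probe set 92348_at had 150, 120 and 139 on the T+T arrays, against 140 on the T+O array, which lies inside the T+T range. Thrb probe set 98795_at had 38.8, 47.2 and 12.5 on the T+T arrays, against 11.3 on the T+O array. T+T replicates 1 and 2 were high, and T+T replicate 3 lay beside T+O. Its log2 difference of 0.90 had a standard error of 0.56 and a 95% interval of -0.39 to 2.19. A probe set of Nr2c2 (testicular receptor 4), 103976_at, which fell under the filter, had the same layout, with 37.5, 31.98 and 5.06 on the T+T arrays, against 3.66 on the T+O array. As deposited, before scaling, the trimmed means were 84.1 and 72.9 on T+T replicates 1 and 2, and 124 and 106 on T+T replicate 3 and the T+O array, so both signals were high on the arrays that were dim as deposited. Whether brightness played a part was not tested. Against T+O, T+T replicate 3 alone differed by 0.08 for Thrb, 1.53 for Nr6a1, 0.63 for Esrra 103964_at and 0.85 for Nr1i3 104506_at (log2).

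Nr1d1 (REV-ERBα) and Rora are the repressing and activating receptors of the clock's feedback loop, and Nr1d1 overlaps Thra in RefSeq. Both varied little. Nr1d1 had 131, 138 and 142 on the T+T arrays, against 120 on the T+O array, a log2 difference of 0.17 with a 95% interval of -0.29 to 0.63. Rora 101889_s_at had 51.2, 52.5 and 49.9 on the T+T arrays, against 48.8 on the T+O array. Nr1d2 spread widely within T+T, with 11.96, 21.0 and 43.8 on the T+T arrays, against 23.8 on the T+O array. None of the 7 tested probe sets of listed clock feedback genes passed, and the widest gap was that of Per1, a clock repressor, at -0.81 (limma, adjusted p = 0.35).

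Coregulators lay mostly below T+O on average: 7 of 9 tested probe sets (77.8%) had a mean difference under 0, where 46.3% of all tested probe sets did, with a median of -0.14, against 0.10 for the 25 tested receptor probe sets. No test of this contrast was made, none of the 9 passed and the lowest adjusted p was 0.77 (limma). All 3 T+T arrays lay below T+O for only 3 of the 9, namely Ncoa3 and both Ncoa6 probe sets. Of all tested probe sets, 23.7% did so. All 3 lay above T+O for 2 of the 9, against 29.5% of all, and 4 were mixed. The 7 count both Ncoa6 probe sets and Nr2c2ap 161841_r_at, which ran from 4.25 to 43.1 on the T+T arrays. Without T+T replicate 1 the log2 difference was 0.008 for Ncoa1 and 0 for Ncoa4, while Ncoa3 stayed at -0.133. Ncoa6, a coactivator that holds a histone methyltransferase complex, is covered by a pair of probe sets with like values. They had 51.5, 66.5 and 60.5 (95525_at) and 54.2, 62.1 and 55.7 (95351_at) on the T+T arrays, against 69.8 and 66.3 on the T+O array. T+O was the highest array on both, with log2 differences of -0.20 and -0.18.

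The p160 coactivators, which bring histone acetyltransferases to ligand-bound receptors, lay on both sides of T+O. Ncoa1 (SRC-1) had 12.2, 22.8 and 40.9 on the T+T arrays, against 30.6 on the T+O array, spread to both sides. Ncoa2 had 50.5, 34.0 and 52.4 on the T+T arrays, against 28.3 on the T+O array, with all T+T arrays higher, a log2 difference of 0.52 and a standard error of 0.33. Ncoa3 had 42.3, 45.8 and 40.7 on the T+T arrays, against 48.3 on the T+O array, with all T+T arrays lower by a mean log2 difference of -0.14.

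Ncoa4, first described as an androgen receptor coactivator and known also for delivering ferritin to lysosomes, had 215, 260 and 279 on the T+T arrays, against 269.5 on the T+O array. T+O lay inside the T+T range, and the 95% interval of the difference was -0.59 to 0.38 (log2). Ncoa5 had 133, 120 and 99.8 on the T+T arrays, against 126 on the T+O array. For Nr2c2ap, the protein that binds testicular receptor 4, probe set 160654_at had 61.0, 70.3 and 57.3 on the T+T arrays, against 56.3 on the T+O array. Its other probe set, 161841_r_at, had 43.1, 4.25 and 23.4 on the T+T arrays, against 30.9 on the T+O array, and so spread widely among the T+T arrays.

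**Figure D3:**
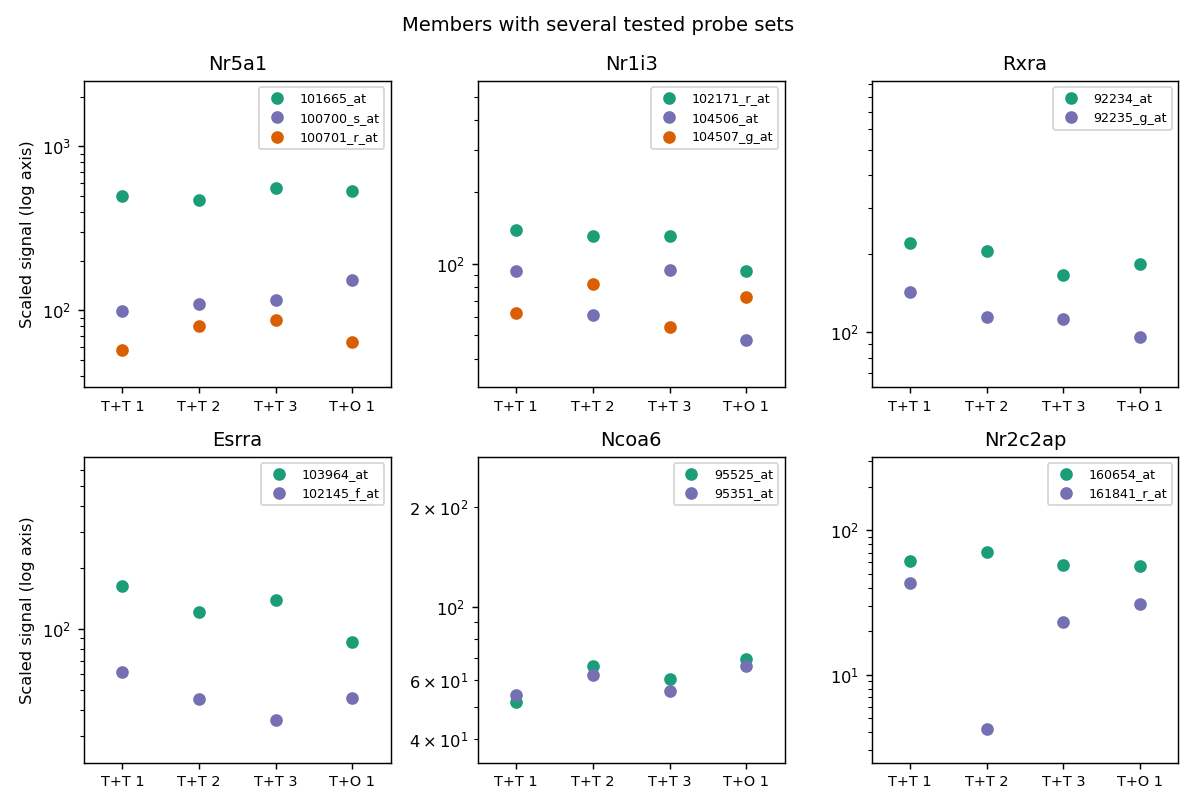
Scaled signal (log y axis) on the 4 arrays for the 6 member genes with several tested probe sets, 1 colour a probe set; heights of different probe sets are not comparable. The Ncoa6 probe sets run in parallel, while those of Nr5a1, Nr1i3 and Nr2c2ap have mean differences on both sides of 0.

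Of the 6 genes with several tested probe sets, 3 (Nr5a1, Nr1i3 and Nr2c2ap) had mean differences on both sides of 0. The remaining 33 member probe sets fell under the filter and were not tested. They belong to 19 genes with no tested probe set (26 probe sets) and to 6 genes with another one that was tested (7 probe sets). The 19 are Esr1, Esr2, Esrrb, Nr3c1, Pgr, Rara, Rarg, Rxrg, Vdr, Ppard, Pparg, Nr1i2, Nr0b2, Nr2c2, Nr2f1, Nr4a2, Nr5a2, Nrip1 and Ppargc1a. Of the 33, 15 stayed under a scaled signal of 10, the added offset, on all 4 arrays.

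Most of these dim probe sets had T+O outside the T+T range. That is common with 3 arrays against 1. Every T+T array lay above T+O for 29.5% of all tested probe sets and below it for 23.7%. The values that follow are examples, given with no fold. Pparg, the fat cell receptor, had 0.690, 0.929 and 9.35 on the T+T arrays, against 12.4 on the T+O array. Pgr, the progesterone receptor, had 5.75, 16.1 and 16.4 on the T+T arrays, against 4.02 on the T+O array. T+O was the highest array for Pparg and the lowest for Pgr. The vitamin D receptor Vdr ran opposite ways on its 2 probe sets: 99964_at had 3.22, 5.57 and 3.12 on the T+T arrays, against 13.2 on the T+O array, and 99965_at had 17.0, 11.8 and 14.3 on the T+T arrays, against 6.04 on the T+O array. Rara, the retinoic acid receptor needed for spermatogenesis, was high on T+T replicate 1 alone, with 17.6, 3.45 and 3.90 on the T+T arrays, against 3.20 on the T+O array. For Nrip1 and Nr3c1 the groups overlapped. The nuclear receptor corepressor Nrip1 had 27.3, 7.96 and 12 on the T+T arrays, against 14.0 on the T+O array. Nr3c1 had 3.68, 8.76 and 1.40 on the T+T arrays, against 5.58 on the T+O array.

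The enzymes, scaffolds, chaperones and target genes of receptors were read from 9 lists of 160 genes, of which 106 had a tested probe set outside the members. None of their 119 probe sets passed, 1 was at least 1.5-fold higher on all 3 T+T arrays (1.82% of all tested probe sets were) and 3 were lower (2.21% of all). The higher one was a probe set of Lcn2, and the lower ones were probe sets of Ddx17, Hdac2 and Per1. Of 28 tested probe sets for coactivator enzymes and Mediator, 19 (67.9%) had a mean below T+O, where 46.3% of all tested probe sets did, and their median log2 difference was -0.13. The lowest was Bcas3 at -1.03, reported to act with the estrogen receptor, and the highest the arginine methyltransferase Prmt1 at 0.26. Ddx17, an RNA helicase that also works as a receptor coactivator, had 181, 214 and 233 on the T+T arrays, against 360.5 on the T+O array (101962_at, limma, adjusted p = 0.35). Its second probe set lay on the same side, with 58.2, 69.9 and 94.97 on the T+T arrays, against 108 on the T+O array.

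Corepressor complex subunits (22 tested probe sets) had a median of 0.11 (log2). Hdac2, a histone deacetylase of these complexes, had 88.1, 69.5 and 105 on the T+T arrays, against 179.9 on the T+O array, a log2 difference of -0.98 (limma, adjusted p = 0.33). Its close relative Hdac1 had 292, 312 and 293 on the T+T arrays, against 266 on the T+O array. Rbbp7, a histone-binding subunit of the same complexes, was the highest at 0.80, with 692, 755 and 362 on the T+T arrays, against 325 on the T+O array. Of 12 tested probe sets for chaperones that fold steroid receptors, Hsp90aa1 was the lowest at -0.86 and the co-chaperone Stip1 the highest at 0.47.

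Glucocorticoid receptor targets (16 tested probe sets, median 0.07) held Lcn2, an iron-carrier protein of the acute phase response, with 74.2, 71.0 and 93.0 on the T+T arrays, against 32.4 on the T+O array (160564_at, log2 difference 1.07, limma, adjusted p = 0.28). Its second probe set, 161684_r_at, had 43.7, 38.6 and 41.9 on the T+T arrays, against 42.7 on the T+O array, which lies inside the T+T range. Per1, which is also a target of this receptor, had 106, 85.5 and 97.0 on the T+T arrays, against 175 on the T+O array.

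**Figure D4:**
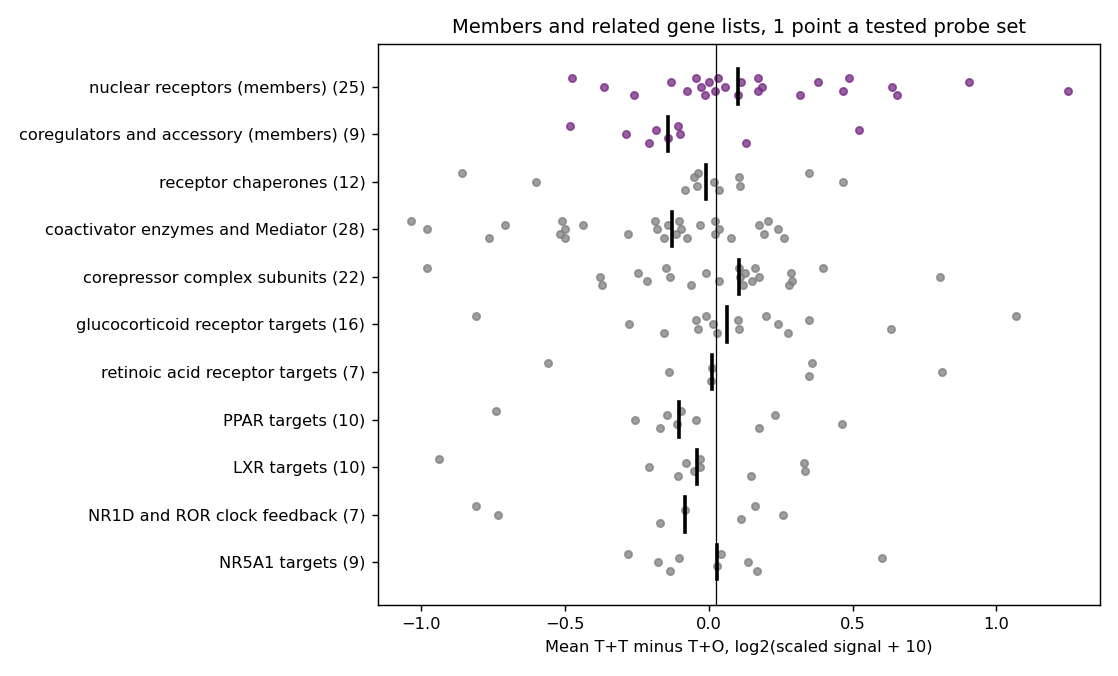
Mean T+T minus T+O (x axis, log2(scaled signal + 10)) for each tested probe set of the members and of the 9 related lists; numbers in brackets count probe sets, black bars are list medians and the thin line the median of all tested probe sets. List medians lie between -0.14 (coregulators among the members) and 0.11 (corepressor complex subunits), and the widest member is Nr6a1 at 1.25.

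T+T replicate 1 and the T+O array are the 2 whose title and description match, 1 array against 1 array with no replicate check. Of the tested members 5 (14.7%) were at least 1.5-fold higher on T+T replicate 1, against 6.83% of all tested probe sets, and 3 (8.82%) at least 1.5-fold lower, against 11.0% of all. The higher ones were Thrb at 1.20, Nr6a1 at 0.84, Esrra 103964_at at 0.83, Nr1i3 104506_at at 0.83 and Ncoa2 at 0.66 (log2). The lower ones were Ncoa1 at -0.87, Nr4a1 at -0.80 and Nr1d2 at -0.62. With T+T replicates 2 and 3 counted as withdrawn, T+T replicate 1 stands against the other 3 arrays, the comparison in which Nr6a1 turned sign. Esrra 103964_at then differed by 0.47, Thrb by 0.70 and Nr4a1 by -0.70. For Thrb the sides overlapped, with 47.2 on T+T replicate 2 and 38.8 on T+T replicate 1.

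Markers of testis cell types were measured on all arrays. Of 56 marker genes for 9 testis and neighbouring cell types, 52 had a probe set, 44 passed the filter and no probe set was listed at 0. The T+O sum lay under all T+T sums for spermatid, peritubular myoid, macrophage and endothelial markers, over all of them for germ cells before meiosis, and within the T+T range for Sertoli, Leydig, meiotic and adipocyte markers. The meiotic sum is mostly that of Ldhc, with 5861, 6071 and 4713 on the T+T arrays and 5073 on the T+O array, and does not show the gap in Sycp1 given above. The macrophage sums, for example, were 334, 359.8 and 456 on the T+T arrays and 295 on the T+O array. Not every probe set followed its sum. T+O lay inside the T+T range for Cd68 103016_s_at, Lyz2 100611_at, the peritubular myoid marker Myh11 and the endothelial marker Pecam1, among others. The dim Cd68 162173_i_at and Lyz2 162309_at lay below T+O on all T+T arrays. Of the endothelial list Cdh5, under the filter, had 17.0, 14.7 and 17.2 on the T+T arrays, against 24.5 on the T+O array.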

How the data were processed

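Total RNA of 4 testis samples was measured on 1-colour Affymetrix arrays, as the probe set names in the deposited file show. The authors deposited 1 intensity for each probe set of each array, not log-transformed. Which software made it is not given in these sources, and detection calls were not used. Array means differed as deposited, so each array was scaled to the common mean after trimming 2% of probe sets at each end. The 66 control probe sets were left out. An offset of 10, the 25th percentile, was added before log2. Probe sets with a mean above the 40th percentile (7453 of 12422) were tested with limma 3.58.1 in R 4.3.3 (lmFit, eBayes with intensity trend, two-sided, Benjamini-Hochberg), 3 T+T arrays against 1 T+O array. The fit has 2 residual degrees of freedom and assumes that T+O varies like T+T. The procedure was tested on simulated data.

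Groups come from the titles. The number 3 was given in accession order. Nothing says that the arrays are separate animals, so p-values measure only the spread between these samples. Named members were those past the threshold or 1.5-fold or more from T+O on every T+T array, the 12 with the widest mean difference, a fixed set of receptors and coregulators, and genes with disagreeing probe sets. Named related genes were those past either limit and the ends of each list. The members and lists were chosen with earlier results of these data known. Gene symbols come from the platform annotation, matched by gene ID to RefSeq for 10817 of 10833 probe sets. A further 396 probe sets carry several symbols and 1193 have none. Promoter sequences are RefSeq's for GRCm38.p6. Hdac1, the second probe sets of Ddx17 and Lcn2, and the germ cell markers Sycp1, Dazl, Acrv1, Ldhc, Tnp2 and Prm1 were named after their values were seen. So were the markers Ccna1, Hspa2, Pgk2, Ddx4, Uchl1, Kit, Cd68, Lyz2, Cdh5, Myh11 and Pecam1, and Stra8 as a marker. The second Abca1 probe set was also named afterwards. The alternatives were quantile and median scaling, another offset, 2 other filters, no intensity trend, leaving out each T+T array, 1 probe set a gene, and reading T+T replicates 2 and 3 as withdrawn.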

Additional observations from a re-analysis of the deposited data

How the results depend on the processing

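No member probe set passed the adjusted threshold under any of the 10 alternatives for which it was counted. No paired analysis was possible because the only T+O array cannot be matched to more than 1 T+T array. Among all probe sets, the 2 past the threshold became 0 with quantile scaling, with no filter, without the intensity trend and when T+T replicates 2 and 3 were counted as withdrawn. They became 6 with median scaling or with an offset at the 50th percentile. Omitting T+T arrays singly gave 63 (replicate 1), 12 (replicate 2) and 1 (replicate 3).

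The single member 1.5-fold or more from T+O, Nr6a1, became 0 with the higher offset, with the stricter filter (60th percentile, which leaves its probe set untested) and when T+T replicates 2 and 3 were counted as withdrawn. A dim Nr5a1 probe set, 161418_r_at, joined it with no filter, which gave 2. The count was 1 without T+T replicate 1, 4 without T+T replicate 2 (Esrra 103964_at, Nr1i3 104506_at and Ncoa2 were added) and 2 without T+T replicate 3 (Thrb was added). Of all probe sets, 301 lay that far apart, 136 higher and 165 lower. This became 155 with the higher offset, 523 with no filter and 167 with the stricter filter, and 416 (without T+T replicate 2) to 653 (without T+T replicate 3) when a T+T array was omitted. With those replicates counted as withdrawn, the split was 49 higher and 156 lower. The members' median became 0.067 with the stricter filter, and 0.039 (without T+T replicate 1) to 0.055 (without T+T replicate 3) when a T+T array was omitted.

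Of 252 values for 26 named member probe sets under the alternatives, 239 kept their direction and 13 did not. The 239 include the values under the other filters and without the intensity trend. Those settings leave a log2 difference unchanged by construction, so these values could not turn. Counting T+T replicates 2 and 3 as withdrawn turned the sign of Nr6a1 (-0.131), Nr1d1 (-0.024), Nr2c2ap 160654_at (-0.001) and 161841_r_at (0.982), Nr2f2 (0.25), Nr5a1 100701_r_at (-0.367) and Thra (0.165). Nr2f2, at 0.00, also became 0.009 with the higher offset. Omitting a T+T array gave values on both sides of 0 for Ncoa1 (-0.591 to 0.008), Nr1h3 (-0.003 to 0.209), Nr2c2ap 161841_r_at (-0.908 to 0.042), Nr2f2 (-0.148 to 0.241) and Thra (-0.109 to 0.041). The cause was not tested. The number of arrays, and for dim probe sets the signal over background, limit every value.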
